A study of Mus musculus with 9 samples.

Results

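The genes described here code for 4 receptors that guide T cells into and out of lymph nodes: S1pr1 and S1pr4, both receptors for sphingosine 1-phosphate (S1P), the chemokine receptor gene Ccr7, and Selplg, which codes for PSGL-1. They were taken by symbol from a table of 24060 genes, and all 4 were among the 11330 genes whose maximum level exceeded 1 TPM (a transcript level corrected for length and scaled to one total per library) and which were tested. The cells came from the transnuclear mouse lines R7-I, R7-II and R7-III, made by nuclear transfer from single CD8 T cells, so that each line carries the T cell receptor of 1 founder cell. All 3 receptors recognize a peptide of ROP7, a protein of the parasite Toxoplasma gondii. According to the study's design, affinity for the peptide falls in the order R7-I, R7-III, R7-II, and self-reactivity, read from CD5 and Nur77, in the order R7-III, R7-I, R7-II. The paper's affinity measurement with membrane-anchored molecules, however, found little difference between R7-I and R7-III. Splenocytes of all 3 lines were treated alike before sorting, and IL-2 (10 ng/ml) and the ROP7 peptide (10 µM) were present overnight. Live CD3+ CD8+ tetramer-binding cells were then sorted. The labels call the 3 libraries of each clone biological replicates without saying whether each came from its own mouse, so the p-values measure only the spread between these samples. The ages of the mice are not given in the labels, and unstimulated cells were not analysed here. Because each clone is 1 founder line, affinity, self-reactivity and any other trait of a line cannot be told apart.

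S1P is abundant in blood and lymph and scarce inside lymphoid tissue. S1PR1 senses this gradient, and T cells that carry it on their surface leave lymph nodes through it. CCR7 works in the opposite direction: its ligands CCL19 and CCL21 draw naive and central memory T cells into the T cell zone. PSGL-1 is a heavily glycosylated surface mucin that binds P-selectin when it carries the right sugars, and it also binds CCL19 and CCL21 and restrains T cell responses. S1PR4 is an S1P receptor found mainly on haematopoietic cells. Activated CD8 T cells shut down S1pr1 early, partly through loss of the transcription factor KLF2, and are thereby held in the node while they divide.

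The 4 genes lie on separate chromosomes of GRCm38 (mm10), all on the minus strand in the GENCODE annotation. By RefSeq, S1pr1 is at chr3:115710433-115715055, S1pr4 at chr10:81497745-81500137, Ccr7 at chr11:99144199-99155077 and Selplg at chr5:113817798-113832528. In GENCODE, no exon of another gene overlapped theirs. None of the windows of 100 bases along their protein-coding GENCODE transcripts, the length of the reads, recurred in a GENCODE transcript of another gene. The RefSeq transcripts, on which the levels were estimated, were not searched in this way. Of the 4 genes, only S1pr4 had an entry in the promoter table used here (RefSeq, GRCm38.p6). The 250 bases before its start are shown because S1pr4 was higher in the same libraries as Klf2, whose product binds CACCC-type motifs. They lie at chr10:81500138-81500387 and are read on the minus strand, with capitals marking the match to CACCC or its reverse GGGTG.
S1pr4 promoter: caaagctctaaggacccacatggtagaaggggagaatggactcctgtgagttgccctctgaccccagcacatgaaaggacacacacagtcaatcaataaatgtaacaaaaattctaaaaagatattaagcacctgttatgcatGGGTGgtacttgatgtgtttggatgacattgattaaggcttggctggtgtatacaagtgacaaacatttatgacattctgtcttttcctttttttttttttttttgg
The single match begins 107 bases upstream of the start. A match of this kind, on either strand, was present in 52.0% of 32851 mouse promoter windows of the same length. The forkhead core GTAAACA (reverse TGTTTAC), which FOXO1 can bind, had 0 matches here and was present in 3.17% of the windows.

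The comparison of the clones asks how receptor transcripts for node entry and exit differed between cells that had met the same peptide through different T cell receptors. The transcripts of all 4 genes were highest in R7-II. Here and below, rose, fell, gained and moved describe a difference between clones and not a change with activation. All libraries came from cells given the peptide, and unstimulated cells were not analysed here. Compared with R7-I, 4 of 4 rose in R7-II at an adjusted p of 0.01 (limma on log2(TPM + 1)), as did 40.6% of all genes tested. Compared with R7-III, 4 of 4 rose, as did 35.6% of all genes. More than 2-fold higher were S1pr1, S1pr4 and Selplg, 3 of 4 in both comparisons, beside 5.98% and 4.77% of all genes tested. The comparisons of R7-II with R7-I and with R7-III share the R7-II libraries, so their values are given side by side and are not independent. In bulk RNA, a larger share of cells that express a gene and more RNA of it per cell cannot be told apart.

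**Figure D1:**
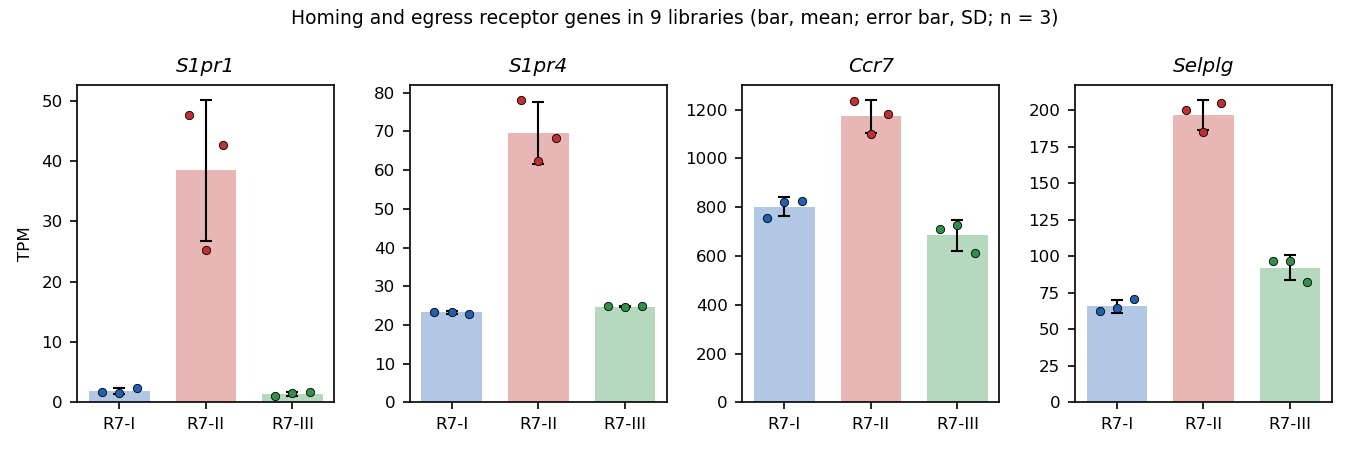
TPM (vertical axes, each from 0 and each with its own scale) of S1pr1, S1pr4, Ccr7 and Selplg in R7-I, R7-II and R7-III; points are single libraries, bars the mean and error bars the SD of 3 libraries. In each panel the 3 R7-II points lie above the other 6, by the widest margin for S1pr1 (25.3 TPM against at most 2.38) and the narrowest for Ccr7 (1100 against at most 825).

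S1pr1, the egress receptor, showed the widest gap. Its level was 47.58, 25.30 and 42.61 TPM in the 3 R7-II libraries, 1.71, 1.51 and 2.38 TPM in R7-I, and 1.09, 1.58 and 1.66 TPM in R7-III. The lowest R7-II library was thus 10.6 times the highest library of the other clones, while R7-I and R7-III overlapped. The mean was 38.5 ± 11.7 TPM in R7-II against 1.87 ± 0.456 in R7-I and 1.44 ± 0.309 in R7-III (SD, n = 3 each). On the log2(TPM + 1) scale S1pr1 was higher in R7-II by 3.75 (SE 0.209, 95% interval 3.29 to 4.21, adjusted p = 1.84e-07, limma) than in R7-I and by 3.97 (interval 3.51 to 4.44, adjusted p = 1.50e-07) than in R7-III. Ordered by this change, S1pr1 ranked 2 of 11330 genes against R7-I and 1 against R7-III. The pseudocount of 1 compresses changes of low levels, and the ratios of the mean TPM were 20.6 and 26.7. S1pr1 was also the most variable of the 4 genes among the R7-II libraries, with a coefficient of variation of 30.4%.

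S1pr4 differed less than S1pr1, and varied less within R7-I and R7-III than within R7-II. R7-II libraries had 78.23, 62.44 and 68.35 TPM, R7-I libraries 23.44, 23.49 and 22.91, and R7-III libraries 24.86, 24.59 and 24.83. R7-I and R7-III stayed within 2 TPM of each other, and every R7-II library was at least 2.51 times as high as any of theirs. On the log2 scale it rose by 1.54 (SE 0.0677, interval 1.39 to 1.69, adjusted p = 5.52e-08, limma) against R7-I and 1.45 (interval 1.30 to 1.60, adjusted p = 8.65e-08) against R7-III.

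Ccr7, the entry receptor, was abundant in every library. R7-II libraries had 1235.55, 1099.69 and 1181.17 TPM, R7-I libraries 756.40, 822.03 and 825.38, and R7-III libraries 711.71, 728.70 and 612.73. By level within a library, Ccr7 ranked 109 to 124 in R7-II, 148 to 157 in R7-I and 165 to 203 in R7-III among all genes of the table. Its log2 change was the smallest of the 4, at 0.55 (SE 0.0653, interval 0.40 to 0.69, adjusted p = 3.25e-05, limma) against R7-I and 0.78 (interval 0.63 to 0.92, adjusted p = 2.78e-06) against R7-III. Both values lay inside the 5th to 95th percentile of all genes tested, -0.52 to 1.09 and -0.71 to 1.00, and Ccr7 ranked 2160 and 947 by change. The median gene rose by 0.17 and 0.12 in the same comparisons. When each library was divided by its median-of-ratios factor, which brought those medians to 0.03 and 0.02, Ccr7 was higher in R7-II by 0.39 and 0.67 and still passed. Among the genes that passed, the share higher in R7-II went from 72.4% to 50.9% against R7-I and from 66.4% to 50.2% against R7-III with this scaling.

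Selplg separated all 3 clones. R7-II libraries had 200.15, 185.27 and 205.28 TPM, R7-III libraries 97.09, 97.11 and 82.49, and R7-I libraries 62.36, 64.44 and 70.60, with no overlap between any pair of clones. On the log2 scale it rose by 1.57 (SE 0.0692, interval 1.41 to 1.72, adjusted p = 5.52e-08, limma) against R7-I and 1.09 (interval 0.94 to 1.24, adjusted p = 4.23e-07) against R7-III. With the median-of-ratios factor these became 1.41 and 0.98, so the second fell just under 2-fold.

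**Figure D2:**
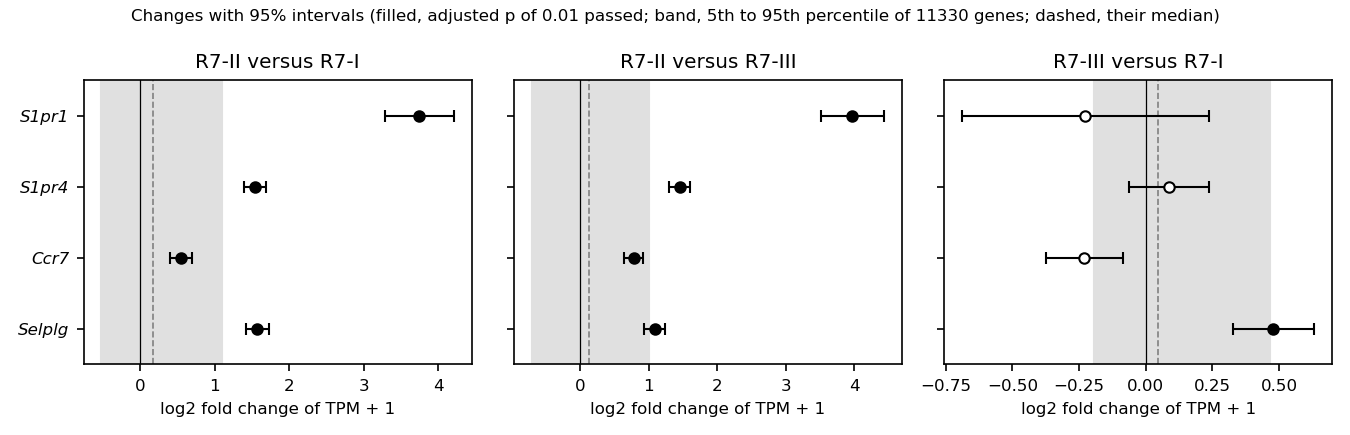
Change in log2(TPM + 1) of the 4 receptor genes (horizontal axis) in the 3 comparisons of clones; points are limma estimates, bars 95% intervals, filled points passed an adjusted p of 0.01, the grey band spans the 5th to 95th percentile of the 11330 genes tested and the dashed line is their median. S1pr1, S1pr4 and Selplg lie right of the band in both comparisons of R7-II, Selplg close to its edge against R7-III, and Ccr7 lies inside it. Selplg is the only filled point for R7-III against R7-I.

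As a check without a model, the 3 R7-II libraries were set against the other 6 by an exact two-sided permutation test on log2(TPM + 1). This exact test gave p = 0.0238 for each of the 4 genes, the smallest value that 3 against 6 libraries allow. In 4 of 4 genes the R7-II libraries did not overlap the others and were higher, as for 41.7% of all genes tested. With 3 against 3 libraries the exact test cannot go below 0.1, so it cannot pass 0.05 for a single pair of clones.

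The other 2 clones differed in 1 of 4 genes. Selplg was higher in R7-III by 0.48 on the log2 scale than in R7-I (interval 0.33 to 0.63, adjusted p = 0.00114, limma), where 6.96% of all genes tested passed as higher and 1.45% as lower. Without overlap between these clones were Selplg and S1pr4, higher in R7-III as were 29.5% of all genes, and Ccr7, lower in R7-III as were 12.4%. Ccr7 was at 684 ± 62.6 TPM in R7-III and 801 ± 38.9 in R7-I (SD, n = 3 each). Its log2 difference of -0.23 (interval -0.37 to -0.09) did not pass at 0.01 (adjusted p = 0.0330, limma), and at an adjusted p of 0.05 Ccr7 would join Selplg. The difference was -0.23 (interval -0.69 to 0.24) for S1pr1 and 0.09 (interval -0.06 to 0.24) for S1pr4, with adjusted p = 0.498 and 0.426 from limma. These intervals leave room for a difference in S1pr1 that is larger than the one measured for Ccr7, and bound that in S1pr4 more closely. The order of levels was therefore R7-II first for all 4 genes, R7-III above R7-I for Selplg, and no difference between R7-I and R7-III past the threshold for the other 3. R7-II stands last in both orders that the design gives, of affinity and of self-reactivity.

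The receptors did not differ between the clones in proportion. The differences of log2(TPM + 1) between 2 receptors within a library, 6 in all, were compared between R7-II and the other clones by exact two-sided permutation tests, adjusted over the 6 pairs. In 5 of 6 the R7-II libraries differed (exact permutation p = 0.0238, the smallest possible, adjusted p = 0.0286). The share of pairs of all genes that reach this value was not computed. For single genes, R7-II lay above the other 6 libraries without overlap in 41.7% of those tested. The count is therefore not a trait shown to be particular to these receptors. On the log2(TPM + 1) scale S1pr1 gained 3.20 on Ccr7, 2.53 on Selplg and 2.37 on S1pr4. Because S1pr1 was low in R7-I and R7-III, these 3 values depend on the pseudocount and came to 2.01, 1.39 and 1.31 with a pseudocount of 5 and to 3.78, 3.10 and 2.91 with 0.1. S1pr4 gained 0.83 on Ccr7, and Ccr7 changed by -0.67 relative to Selplg. For S1pr4 against Selplg the difference was 0.16 (exact permutation p = 0.310, adjusted p = 0.310), and it was not alike for both other clones. It was -0.03 from R7-I, with overlapping libraries, and 0.36 from R7-III, whose libraries (-1.94 to -1.69) all lay below those of R7-II (-1.57 to -1.34). With 1 R7-II library left out, the exact permutation test cannot go below 0.0714, and the 5 ratios stood at that value (adjusted p = 0.0857).

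The same contrast can be read in plain ratios. There were 26.0 to 43.5 Ccr7 transcripts per S1pr1 transcript in R7-II, against 347 to 544 in R7-I and 369 to 653 in R7-III. Per Selplg transcript, Ccr7 stood at 5.75 to 6.17 in R7-II, 7.33 to 7.50 in R7-III and 11.7 to 12.8 in R7-I, so that all 3 clones were apart in this ratio. These ratios use TPM, which is corrected for transcript length.

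Of the 5 S1P receptor genes, 3 passed the filter and all of those were higher in R7-II. S1pr2, whose product acts against migration, was at 6.77 ± 0.550 TPM in R7-II, 3.99 ± 0.286 in R7-I and 4.83 ± 0.528 in R7-III (SD, n = 3 each). In log2 terms it rose by 0.64 over R7-I and 0.42 over R7-III (adjusted p = 1.30e-04 and 0.00242, limma), a call that was lost with quantile normalization (adjusted p = 0.0201 and 0.0493). S1pr3 and S1pr5 did not reach 0.2 TPM in any library and were not tested. Summed over the 5 genes, S1P receptor transcripts came to 94.1 to 133 TPM in R7-II, 29.0 to 29.5 in R7-I and 30.7 to 31.4 in R7-III. S1pr1 made up 32.9 ± 5.24% of this sum in R7-II, 6.40 ± 1.59% in R7-I and 4.65 ± 1.03% in R7-III (SD, n = 3 each). The R7-II share differed from that of the other 6 libraries (exact two-sided permutation p = 0.0238). S1pr4 was the main S1P receptor transcript in every library, at 58.1 to 66.3% in R7-II and 78.9 to 80.9% in R7-I.

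**Figure D3:**
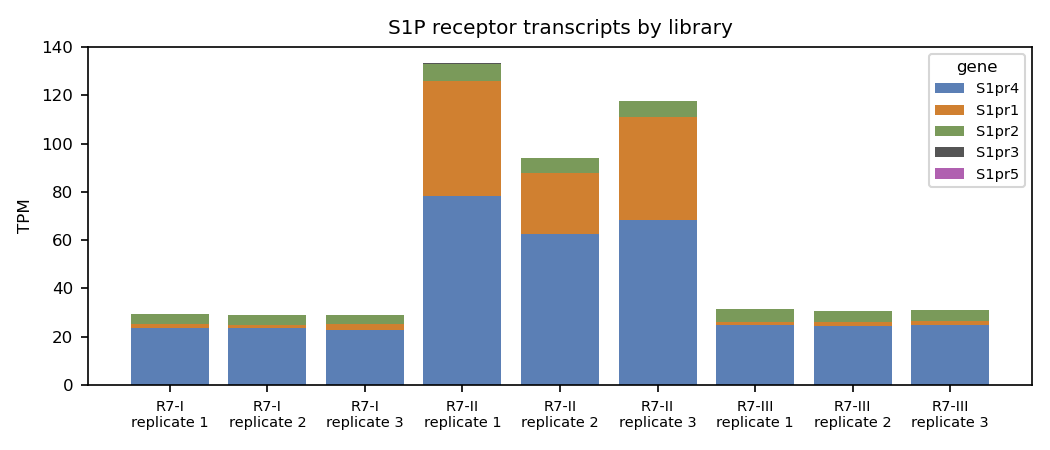
Stacked TPM (vertical axis, from 0) of the 5 S1P receptor genes in each of the 9 libraries. S1pr4 fills most of every bar, S1pr1 adds a broad segment only in the 3 R7-II bars, and S1pr3 and S1pr5 are too low to be seen at this scale.

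Lists of genes around each receptor were described in the same way, by counts beside the share of all genes that passed, 40.6% higher and 15.5% lower in R7-II against R7-I and 35.6% higher and 18.0% lower against R7-III. Of 12 genes that control S1pr1 or carry its signal, all 12 were tested, 8 rose and 1 fell in R7-II against R7-I, with a median log2 change of 0.44. Against R7-III, 6 rose and 2 fell (Rgs1 and Stat3), with a median of 0.30. With the median-of-ratios factor 7 rose and 3 fell against R7-I, where 27.8% of all genes were then higher and 26.8% lower. Against R7-III 6 rose and 3 fell, where 26.7% were higher and 26.5% lower. Klf2, which drives S1pr1 transcription, was at 102 ± 20.5 TPM in R7-II against 9.14 ± 0.644 in R7-I and 9.36 ± 0.558 in R7-III (SD, n = 3 each), a log2 change of 3.33 and 3.30. Foxo1, which codes for a factor upstream of Klf2, rose by 0.81 and 0.82 (adjusted p = 2.91e-06 and 2.48e-06, limma). Arrb1, the beta-arrestin gene whose product takes part in receptor internalization, rose by 1.86 and 1.70 from a mean under 1 TPM in both other clones. Arrb1 exceeded 1 TPM only in R7-II, so it was tested, and counted in this list, only through the clone where it was high.

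Rgs1, which codes for a protein that dampens chemoattractant receptor signals, moved the other way. It was at 119 ± 41.0 TPM in R7-II, 355 ± 27.3 in R7-I and 405 ± 25.1 in R7-III (SD, n = 3 each), a log2 change of -1.62 and -1.81 (adjusted p = 1.52e-05 and 7.37e-06, limma). Cd69, whose product removes S1PR1 from the surface, was at 287 ± 8.88, 276 ± 14.1 and 274 ± 8.94 TPM in R7-II, R7-I and R7-III. Its log2 difference was 0.06 in both comparisons (adjusted p = 0.248 and 0.198, limma), and turned to -0.10 and -0.05 with the median-of-ratios factor.

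Of 10 genes for making, degrading and exporting S1P, 6 were tested and 5 rose in R7-II in each comparison, with medians of 0.42 and 0.37. This count depended on scaling, at 3 and 2 with the median-of-ratios factor and 2 and 2 with quantile normalization, under which 22.6% of all genes were higher in R7-II against R7-I and 24.4% against R7-III. Among the genes that rose, Ppap2c exceeded 1 TPM only in R7-II and so was tested only through the clone where it was high. Sphk2, the main sphingosine kinase transcript here, went from 39.6 TPM in R7-I and 42.8 in R7-III to 50.6 in R7-II, while Sphk1 and the exporter gene Spns2 stayed under the filter.

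Of 17 genes that link CCR7 to migration and integrin arrest, 16 were tested. In R7-II 13 rose and 2 fell against R7-I, and 12 rose and 1 fell against R7-III, with medians of 0.44 and 0.45. With the median-of-ratios factor these counts were 12 and 3, and 11 and 3. The genes that fell against R7-I were Elmo1 and Rap1b, and the gene that fell against R7-III was Rap1b. Rasgrp2, which codes for an activator of the integrin-controlling GTPase Rap1, was at 30.7 ± 8.0 TPM in R7-II, 1.38 ± 0.265 in R7-I and 1.99 ± 0.311 in R7-III (SD, n = 3 each), a log2 change of 3.71 and 3.38. Fyb, an adaptor gene of the same route, rose by 1.80 and 1.69. Coro1a, which codes for an actin regulator that T cells need to leave lymphoid organs, was at 883 ± 30.8 TPM in R7-II against 439 ± 4.66 and 500 ± 21.8 TPM in R7-I and R7-III. Itgal, which codes for a subunit of the integrin LFA-1, was at 310, 306 and 324 TPM in R7-II, R7-I and R7-III and did not pass in any comparison. The ligand genes were nearly silent in the sorted cells, with Ccl21a listed at 0 in all 9 libraries and Ackr4, which codes for a scavenger of these ligands, at 0.15 to 0.173 TPM on average.

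The enzymes that decorate PSGL-1 did not move together. Of 13 such genes 11 were tested, 4 rose and 1 fell in R7-II against R7-I, and 3 rose and 2 fell against R7-III, with medians of 0.05 and -0.00. With the median-of-ratios factor, 2 rose and 4 fell against R7-I (27.8% and 26.8% of all genes), and 2 rose and 3 fell against R7-III (26.7% and 26.5%). The tyrosine sulfotransferase genes went in opposite directions, with Tpst2 higher (0.51 and 0.46) and Tpst1 lower (-0.37 and -0.63) in R7-II, all past the threshold. Tsta3, which codes for an enzyme that makes GDP-fucose, was at 70.6 TPM in R7-II, 78.4 in R7-I and 72.0 in R7-III and missed the threshold against R7-III and, narrowly, against R7-I (-0.15, adjusted p = 0.0103, limma). Against R7-I it passed as lower with the median-of-ratios factor (-0.30, adjusted p = 3.48e-04, limma) and with quantile normalization (-0.25, adjusted p = 0.00111). Fut7, whose product adds the fucose needed for selectin binding, stayed at 0.563 to 0.88 TPM on average. Of 7 genes for partners of PSGL-1, 6 were tested, and 4 rose and 1 fell in each comparison. Msn, which codes for moesin, the link from PSGL-1 to the actin cortex, was at 532 TPM in R7-II, 372 in R7-I and 383 in R7-III, a log2 change of 0.52 and 0.47. 4632428N05Rik, the older symbol of the gene for VISTA, an inhibitory receptor that binds PSGL-1, rose by 0.55 and 0.64. The largest change among these partners was that of Snx20, at 1.08 and 0.94. The genes that fell were Selp against R7-I (-0.44) and Rdx against R7-III (-0.21).

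**Figure D4:**
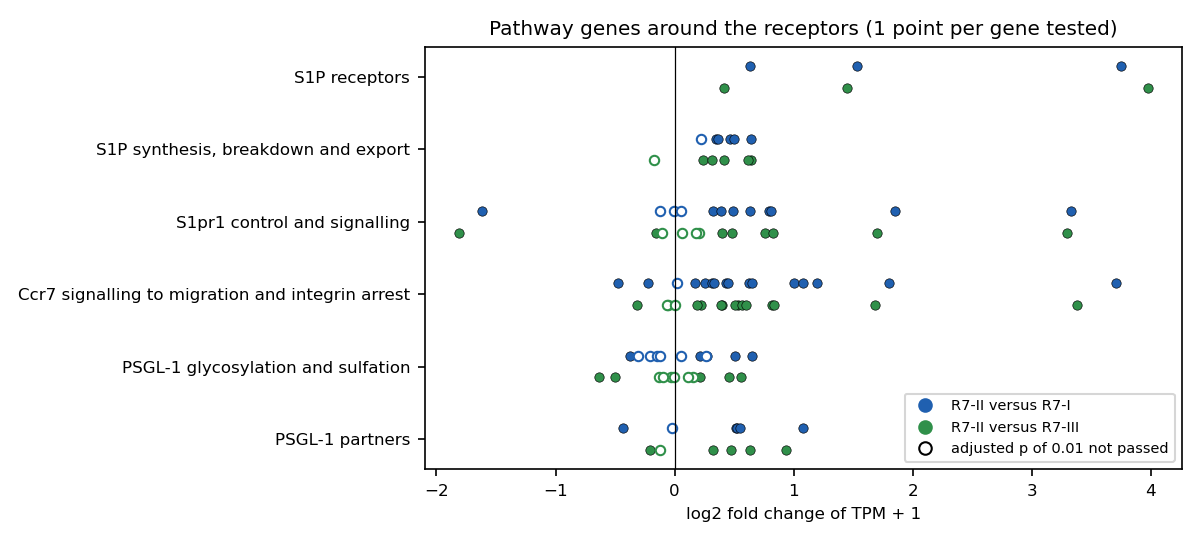
Change in log2(TPM + 1) (horizontal axis) of each tested gene in 6 lists around the receptors, R7-II against R7-I (blue) and against R7-III (green); open points did not pass an adjusted p of 0.01. Most points of the S1P and CCR7 lists lie right of 0, Rgs1 is the point farthest to the left at -1.62 and -1.81, and the PSGL-1 glycosylation list lies on both sides of 0.

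When R7-III was set against R7-I, 0 of the 38 tested genes of the S1P, S1pr1 and PSGL-1 lists passed by limma, while 12 had an unadjusted p under 0.05, as did 32.3% of all genes. In the CCR7 list 4 rose and 1 fell in R7-III. The genes that rose were Dock2, Skap1, Fermt3 and Coro1a, and the one that fell was Elmo1. Coro1a did not pass with the median-of-ratios factor (adjusted p = 0.0205, limma).

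The genes most closely correlated with each receptor over the 9 libraries were ranked by Pearson's r of log2(TPM + 1). For S1pr1 these were Jak1 (r = 0.999), Akap13 and Akap8l (both 0.998), for S1pr4 Ctsd (0.999), Pea15a and Gm11346 (both 0.998), and for Selplg Prickle3 (0.998), Aes and H2afv (both 0.996). For Ccr7 the nearest were Rab11fip2 (0.989), Ptpn14 and Mylpf (both 0.986). Such values were common: of 11329 other genes, 1744 had r above 0.95 with S1pr1, 1906 with S1pr4, 1066 with Selplg and 202 with Ccr7. The 9 points are 3 libraries from each of 3 clones. A high r does not mean a change of like size: Jak1 rose in R7-II by 0.62 and 0.66, and S1pr1 by 3.75 and 3.97. Among the 4 receptors themselves r ran from 0.824 (Ccr7 with Selplg) to 0.990 (S1pr1 with S1pr4).

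The sorted cells carried the transcripts of their gate. Summed over 8 CD8 T cell genes, all tested, the level was 1951 to 1991 TPM in R7-I, 2843 to 2874 in R7-II and 2109 to 2175 in R7-III. Of these, 7 of 8 rose in R7-II against R7-I and 8 of 8 against R7-III. Among all genes tested 40.6% and 35.6% were higher, the shares to set beside each marker count here. Lck, a kinase gene used by every T cell, was at 526 ± 10.6 TPM in R7-II, 400 ± 7.28 in R7-I and 386 ± 22.8 in R7-III (SD, n = 3 each), and Cd4 reached 1 TPM at most. The log2 change of Lck, 0.39 and 0.45, came to 0.24 and 0.34 with the median-of-ratios factor. Markers of other spleen cells moved with R7-II as well. Of 8 B cell genes 7 were tested and 7 rose in each comparison, from a sum of 4.92 to 15.2 TPM in the other clones to 71.2, 34.2 and 54.4 TPM in R7-II replicates 1, 2 and 3. Of 7 MHC class II genes 7 rose in each comparison, from a sum of 24.3 to 50.3 TPM to one of 183, 112 and 181 TPM in the same order. Cd22 and Blk of the B cell list and Ciita of the MHC class II list exceeded 1 TPM only in R7-II. These genes were therefore tested only through the clone where they were high. Of 10 myeloid and dendritic cell genes 7 were tested, 4 rose against R7-I and 5 against R7-III, from a sum of 0.88 to 3.10 TPM to one of 33.0, 17.4 and 73.5 TPM. The myeloid count depended on scaling, at 4 and 3 with the median-of-ratios factor and 1 and 2 with quantile normalization. All tested genes of the myeloid list except Lyz2 exceeded 1 TPM only in R7-II libraries. They were tested only through the clone where they were high, so this count was partly set by the filter. The most abundant gene of each list was Cd79b, which codes for a part of the B cell receptor (13.7 to 25.4 TPM in R7-II, at most 4.72 elsewhere), Cd74, the invariant chain gene of MHC class II (55.4 to 91.3, at most 23.3 elsewhere), and Lyz2, the lysozyme gene of myeloid cells (13.8 to 56.7, at most 2.43 elsewhere). The log2 change of Lyz2, 4.34 against R7-I, was larger than that of S1pr1. Of 4 CD4 T cell and NK cell genes 1 was tested, and it passed only against R7-III (Foxp3). Foxp3 too exceeded 1 TPM only in R7-II. Cd14 was listed at 0 throughout R7-I, and no marker gene was at 0 in all 9.

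Replicate 2 was the lowest R7-II library for all 4 receptors and for the B cell, MHC class II and myeloid sums, and also for 49.4% of all genes tested. B cells and myeloid cells can themselves express S1pr1, S1pr4, Ccr7 and Selplg, and the part of these cells in the values above was not tested.

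**Figure D5:**
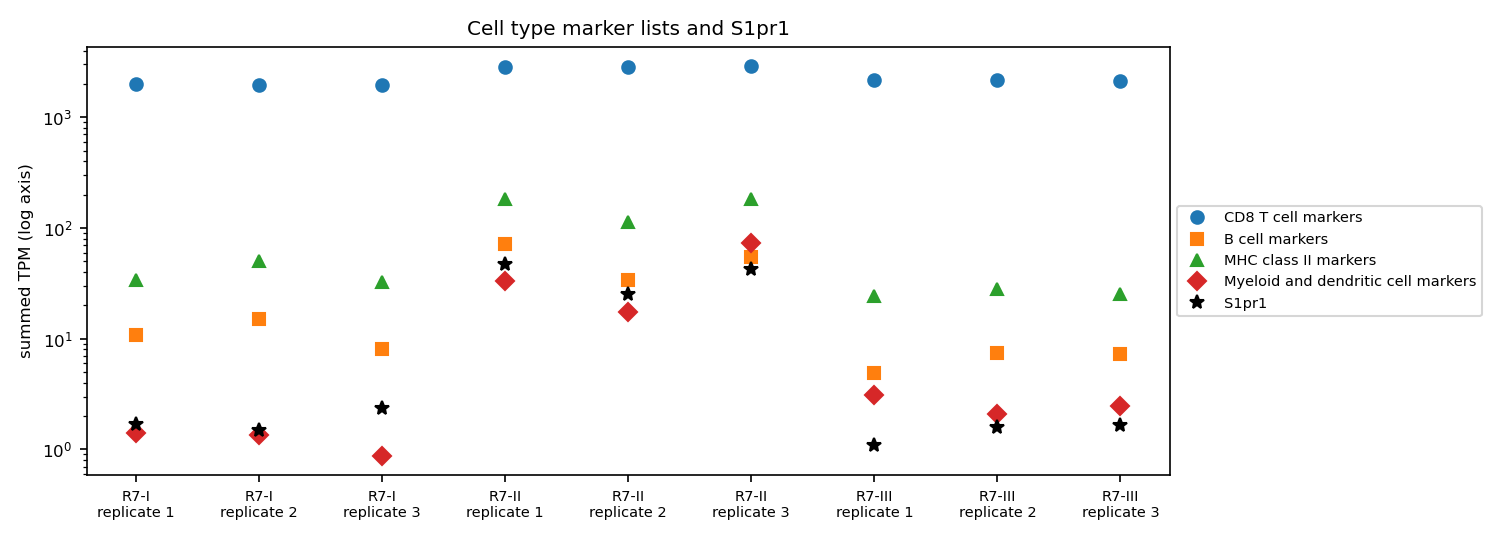
Summed TPM (vertical axis, log scale) of 4 marker lists and the TPM of S1pr1 in each of the 9 libraries. The CD8 T cell sum is 2843 to 2874 TPM in R7-II and 1951 to 2175 TPM in the other clones. S1pr1 and the B cell, MHC class II and myeloid sums are also higher in the 3 R7-II libraries, for these with replicate 2 the lowest of the 3.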

How the data were processed

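Sorted, peptide-activated CD8 T cells were sequenced in 9 libraries, with 3 libraries for each clone. The authors estimated gene levels with RSEM 1.2.11 on RefSeq genes of mm10 and deposited TPM values rounded to 2 decimals; the submitters' processing notes also name DESeq2 1.8.1, a test of counts, and counts were not used here. The sources used here name no aligner. TPM keeps no depth, so no counting interval is given. Between 13738 and 14434 genes were above 0 in a library. Columns were matched to samples by name.

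Genes with a maximum TPM above 1 were tested on log2(TPM + 1) with limma 3.58.1 in R 4.3.3 (lmFit, eBayes with trend, 9 libraries in 1 fit), with Benjamini-Hochberg adjustment over 11330 genes and a threshold of 0.01. The fit was tested on simulated data. Exact permutation tests used scipy 1.17.1 (Python 3.11.15). The 4 genes and all lists were chosen with earlier results of these data known.

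Named besides the 4 genes are Klf2, Foxo1, Cd69, the other S1P receptors, in each pathway list the genes past 2-fold in both comparisons of R7-II and the gene with the highest mean TPM, in each marker list the gene with the highest mean TPM, and the 3 genes most like each receptor. Other list genes (such as Stat3, Tpst1, Tpst2, Fut7, Itgal, 4632428N05Rik, Snx20, Selp, Rdx and Foxp3) were named after their values were seen. So were Cd22, Blk, Ciita and Ppap2c. Alternatives were other pseudocounts, filters, scalings, moderation, thresholds, a block for the replicate number, fits without the clone not compared, and each library left out.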

Additional observations from a re-analysis of the deposited data

How the results depend on the processing

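Across 19 alternatives no change of the 4 receptors in R7-II altered direction or its side of the threshold. The log2 change of S1pr1 ran from 2.63 (pseudocount of 5) to 4.27 (pseudocount of 0.1) against R7-I and from 2.72 to 4.61 against R7-III. For S1pr4 it ran from 1.38 to 1.61 and from 1.32 to 1.52, for Ccr7 from 0.39 to 0.66 and from 0.67 to 0.90, and for Selplg from 1.41 to 1.62 and from 0.98 to 1.13. Between R7-III and R7-I, Selplg passed throughout (0.43 to 0.56, adjusted p at most 0.00836 from limma, without R7-I replicate 1). Ccr7 stayed between -0.28 and -0.15 (adjusted p = 0.0186 to 0.104, limma), and at an adjusted p of 0.05 the genes passing there were 2 in place of 1.

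Libraries with the same replicate number did not deviate together (r from -0.0449 to 0.0888 over 9 pairs, 0 above 0.1). This cannot tell whether they were prepared together, and the labels do not say whether the numbers pair them. With the replicate number as a block, 4, 4 and 1 of the receptors passed, and the genes passing went from 6358, 6077 and 953 to 6015, 5786 and 733.

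The 3 ratios that involve S1pr1 moved most with the pseudocount and the library left out, from 1.31 to 2.91 over S1pr4, from 2.01 to 3.78 over Ccr7 and from 1.39 to 3.10 over Selplg. The number of ratios passing lay between 0 and 5 with 1 library left out, at 0 whenever the library left out was of R7-II, where the exact permutation test cannot go below 0.0714, and at 5 otherwise. TPM holds no read numbers, and the depth behind the low S1pr1 values in R7-I and R7-III is unknown.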
